A study of Mus musculus with 7 samples.

Results

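Cholesterol genes were examined in RNA from sorted mouse intestinal crypt cells on 3 diets. The set holds 28 genes chosen by symbol for cholesterol synthesis, uptake, transport, export, storage and its transcriptional control. Of these, 27 were found among the 37310 genes of the count table, and all 27 had enough reads to be tested. Hmgcs1, the synthase that makes HMG-CoA, was not analysed here. The measured genes are 16 synthesis enzymes, 4 genes of SREBP control and 7 genes of sterol uptake, transport, efflux and esterification.

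All mice carried an inducible Cre recombinase at Bmi1 (BmicreERT2) and a red fluorescent reporter (Rosa26RFP), and were 3 months old. They ate their diet from weaning on. The diets were NWD2 (2 libraries), NWD1 (3 libraries) and AIN76A (2 libraries). AIN76A is a purified standard diet. As background, NWD1 models Western intake by raising fat and lowering calcium, vitamin D3 and donors of methyl groups, and NWD2 restores calcium and vitamin D3 to NWD1. From dispersed crypts, cells of strong red fluorescence were sorted that bore the epithelial surface protein Epcam and lacked CD45, found on leukocytes, and their RNA was sequenced in bulk. The labels do not say whether each library came from its own mouse, so p-values measure only the spread between these samples. The reporter marks descendants of cells in which the Cre was active as well as those cells themselves.

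Library totals lay between 14034315 reads, in NWD1 replicate 3, and 77959407 reads, in NWD2 replicate 2. The lowest count of any member in any library was 139 reads, for Idi1 in NWD1 replicate 3. The mRNA of Bmi1, the gene whose locus drives the Cre, was low, between 2.12 and 5.25 CPM (reads scaled to library size) in the 7 libraries. Sis, which encodes the brush border enzyme sucrase-isomaltase of enterocytes, lay between 1956 and 5677 CPM. Ptprc, which encodes CD45, was at most 5.75 CPM. NWD1 replicate 2 was the only female library. NWD1 replicate 3 carried the same i5 index as both NWD2 libraries, while the other NWD1 libraries shared theirs with AIN76A. Its diet is less certain than that of the others, because the deposited table of TPM values has a column headed as NWD2 replicate 3, which no sample title matches, and none for NWD1 replicate 3. Results are therefore also given without it.

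Cells make cholesterol from acetyl units by way of mevalonate, farnesyl units, squalene and a chain of sterols. When sterols in the endoplasmic reticulum run low, the escort protein SCAP carries SREBP-2, the product of Srebf2, to the Golgi, where it is cut and freed to switch on the genes of synthesis, while INSIG proteins hold the complex back when sterols abound. The small intestine takes up dietary and biliary sterol through NPC1L1, returns sterol to the lumen through the ABCG5 and ABCG8 pair, esterifies it with SOAT2 for export in lipoproteins and passes it to apolipoprotein A-I through ABCA1.

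The promoters of these genes are shown first, since SREBP-2 acts together with NF-Y, a factor that binds the letters CCAAT, at many genes of cholesterol synthesis. Windows of 300 bases, from 250 before to 50 after each annotated start, were available for 22 members, 29 windows in all since 5 members have several annotated starts, from RefSeq on build GRCm38.p6, which is not the mm9 build of the submitters' processing notes. No window was available for Fdft1, Fdps, Soat2, Sqle and Stard4. A gene was counted as having a motif where any of its windows held it. CCAAT on either strand was present for 12 of 13 synthesis enzymes, Acat2 being the exception. It was also present for 3 of 4 control genes, Scap being the exception, and for 4 of 5 handling genes, Abca1 being the exception. Over all 27025 genes of the table, 41.1% had it. The following 4 windows are Cyp51, which had the largest difference between NWD2 and NWD1, Mvk and Lss, from both arms of synthesis, and Abca1, the efflux gene without a match. They lie at chr5:4104648-4104947 on the minus strand (Cyp51), chr5:114444019-114444318 on the plus strand (Mvk), chr10:76531355-76531654 on the plus strand (Lss) and chr4:53159846-53160145 on the minus strand (Abca1). Each is written 5′ to 3′ along its gene, with CCAAT and its reverse complement ATTGG in capitals.
Cyp51: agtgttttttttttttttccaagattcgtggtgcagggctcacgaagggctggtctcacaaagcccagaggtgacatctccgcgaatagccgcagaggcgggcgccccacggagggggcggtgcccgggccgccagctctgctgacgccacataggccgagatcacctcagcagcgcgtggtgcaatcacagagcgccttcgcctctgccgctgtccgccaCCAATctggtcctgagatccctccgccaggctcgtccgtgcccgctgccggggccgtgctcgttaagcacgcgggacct
Mvk: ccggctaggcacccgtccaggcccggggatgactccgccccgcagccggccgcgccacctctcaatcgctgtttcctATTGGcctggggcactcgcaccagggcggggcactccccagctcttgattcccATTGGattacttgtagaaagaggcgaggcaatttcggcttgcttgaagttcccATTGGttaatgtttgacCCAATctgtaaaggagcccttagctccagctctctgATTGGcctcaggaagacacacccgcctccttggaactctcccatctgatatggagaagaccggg
Lss: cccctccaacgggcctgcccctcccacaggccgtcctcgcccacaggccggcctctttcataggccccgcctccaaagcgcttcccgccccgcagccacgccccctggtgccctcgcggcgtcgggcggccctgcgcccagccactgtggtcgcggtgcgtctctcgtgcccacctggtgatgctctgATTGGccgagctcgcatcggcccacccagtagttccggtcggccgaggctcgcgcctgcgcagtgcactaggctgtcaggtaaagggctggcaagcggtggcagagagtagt
Abca1: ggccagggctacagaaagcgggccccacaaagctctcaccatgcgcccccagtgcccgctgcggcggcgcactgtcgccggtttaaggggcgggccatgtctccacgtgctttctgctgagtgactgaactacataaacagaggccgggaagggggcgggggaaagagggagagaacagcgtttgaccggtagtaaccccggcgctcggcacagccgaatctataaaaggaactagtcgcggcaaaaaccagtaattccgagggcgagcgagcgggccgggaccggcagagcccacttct
The Mvk window holds 5 such boxes, while those of Cyp51 and Lss hold 1 each. A relaxed sterol regulatory element, TCACNCCAC, was found on neither strand in any window of the 22 genes, and in 1.44% of all genes. An LXR element, taken as 2 direct copies of AGGTCA with 4 bases between them, was found in none of the 22 and in 0.0148% of all genes. These are exact matches of letters in short windows. Both the sterol and the LXR motif are so rare over all genes that their absence from the 22 tells nothing about these genes. Sites that differ from these letters were not searched. Abcg5 and Abcg8 are transcribed in opposite directions on chromosome 17, and the Abcg5 window overlaps a window of Abcg8.

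Among members, levels can be compared only per transcript length, for which mean TPM (reads scaled to transcript length and library size) over the 6 libraries with TPM values was used. Npc1l1 had the highest mean, 314.7 TPM, followed by Abcg5 with 215.8, Soat2 with 192.4, Fdps with 154.5, Abcg8 with 133.8 and Ebp with 115.6 TPM. The genes of intestinal sterol uptake, export and storage were thus among the most abundant members. Abca1, at 2.7 TPM, was the lowest. The synthesis enzymes spanned 6.2 TPM for Lss to 154.5 TPM for Fdps.

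**Figure D1:**
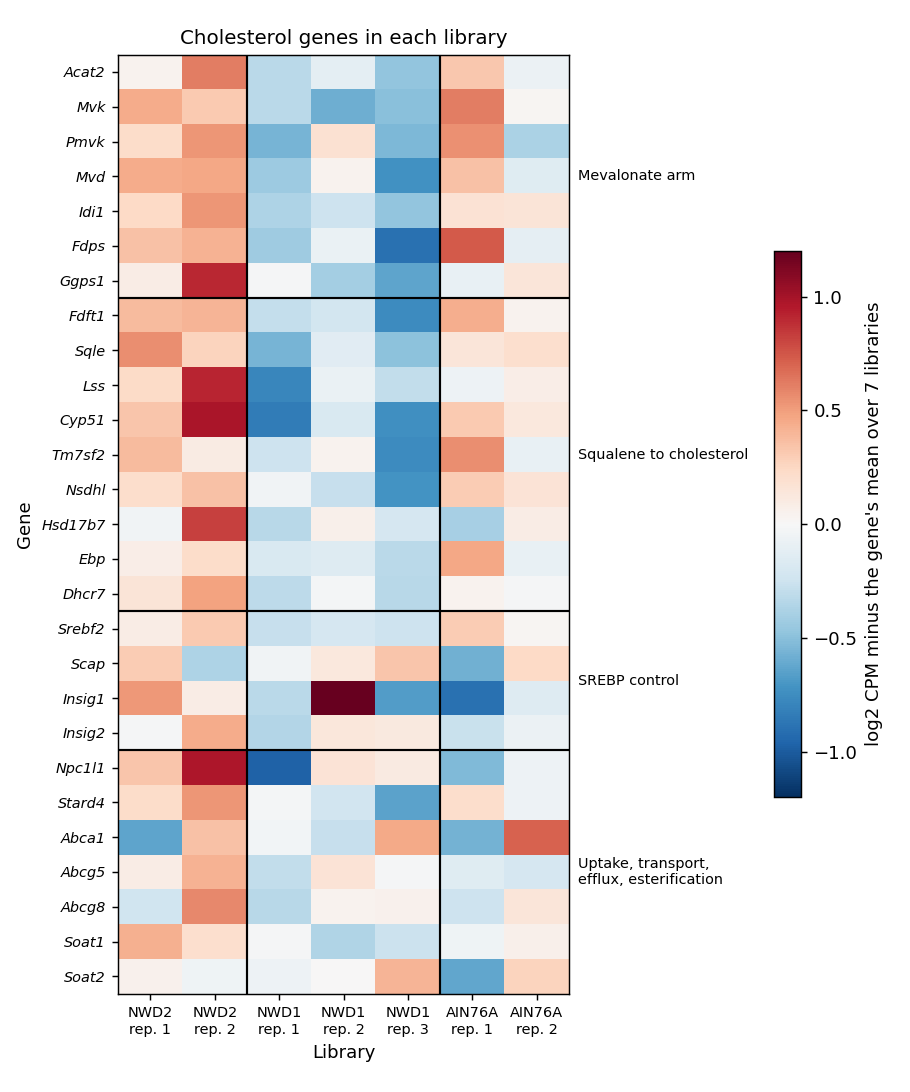
Heat map of the 27 measured cholesterol genes (rows, grouped by role) in the 7 libraries (columns, by diet). Colour is log2 CPM minus the gene's own mean over the libraries. Most of the synthesis enzymes are blue (low) in the 3 NWD1 libraries and red (high) in the NWD2 libraries and in AIN76A replicate 1, while Insig1 is highest in NWD1 replicate 2.

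With NWD2 against NWD1, all 16 synthesis enzymes had higher fitted levels, by log2 fold changes of 0.37 to 1.25 with a median of 0.77, against a median of 0.05 over all 14626 genes tested, of which 53.5% had a higher fitted level. For 15 of the 16, both NWD2 libraries lay above all 3 NWD1 libraries, Hsd17b7 being the exception, where NWD1 replicate 2 lay above NWD2 replicate 1. Over all genes tested, 10.8% were separated in that way. An unadjusted p under 0.05 with a higher level was reached by 11 of the 16, against 1.14% of all genes. That count was 2 with scaling to library size, against 0.232% of all genes. It was 1 on the TPM values of 6 libraries, without NWD1 replicate 3, against 0.5% of all genes. None of the 27 members, and 0% of all genes tested, passed an adjusted p of 0.05 in any of the comparisons (quasi-likelihood test in edgeR, adjusted over all genes by the Benjamini-Hochberg method). In this comparison 1154 genes had an unadjusted p under 0.05, limma voom called 0 genes and DESeq2 called 180. Cyp51 was the only member that DESeq2 called. In a bulk sample, fewer cells of a type and less RNA per cell cannot be told apart.

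The mevalonate arm turns acetyl units into the isoprenoid building blocks from which squalene is made. Mvk, mevalonate kinase, had 26.96 and 24.68 CPM in NWD2 libraries, against 15.83, 13.21 and 13.94 CPM in NWD1 libraries and 30.39 and 20.14 CPM in AIN76A libraries. All 3 NWD1 libraries lay below the 4 others. Its level was 1.80-fold higher with NWD2 than with NWD1 (log2 fold change 0.85 ± 0.27, SE, edgeR adjusted p = 0.532). With NWD1 against AIN76A its log2 fold change was -0.82 ± 0.27 (SE, edgeR adjusted p = 0.878), the most negative value of any member in that comparison.

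Fdps makes farnesyl diphosphate, the branch point between sterols and other isoprenoids. It had 115.6 and 121.8 CPM in NWD2 libraries, against 67.75, 85.75 and 48.87 CPM in NWD1 libraries and 151.8 and 84.35 CPM in AIN76A libraries. The AIN76A libraries differed widely, and replicate 2 of AIN76A lay within the NWD1 range. The log2 fold change was 0.81 ± 0.33 (SE) with NWD2 against NWD1 and -0.81 ± 0.33 (SE) with NWD1 against AIN76A. Idi1, the isomerase that balances the pools of 5-carbon units, had 15.21 and 18.58 CPM in NWD2 libraries, against 9.91, 10.79 and 9.23 CPM in NWD1 libraries and 14.49 and 14.34 CPM in AIN76A libraries. Its 3 diets were tightly grouped, with every NWD1 library below every other library. Its log2 fold change was 0.76 ± 0.26 (SE) with NWD2 against NWD1 and -0.53 ± 0.26 (SE) with NWD1 against AIN76A.

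Mvd, the decarboxylase that yields isopentenyl diphosphate, had 39.94 and 40.40 CPM in NWD2 libraries, against 21.62, 30.20 and 17.73 CPM in NWD1 libraries and 37.47 and 26.45 CPM in AIN76A libraries. Ggps1, which leads away from sterols to the geranylgeranyl units used on proteins, had 17.12 and 30.31 CPM in NWD2 libraries, against 15.93, 12.16 and 10.36 CPM in NWD1 libraries and 15.20 and 17.87 CPM in AIN76A libraries. The separation of Ggps1 between NWD2 and NWD1 was narrow, with NWD2 replicate 1 just above NWD1 replicate 1. Acat2, a cytosolic thiolase that joins acetyl units, had 36.6 and 54.56 CPM in NWD2 libraries, against 28.43, 32.71 and 25.56 CPM in NWD1 libraries and 44.6 and 33.93 CPM in AIN76A libraries. The log2 fold changes of these 3 genes with NWD2 against NWD1 were 0.79 ± 0.30 for Mvd, 0.88 ± 0.33 for Ggps1 and 0.66 ± 0.28 for Acat2 (SE). Pmvk, phosphomevalonate kinase, was the only enzyme of this arm without an unadjusted p under 0.05, at 0.64 ± 0.36 (SE), with 13.76 to 29.56 CPM over all libraries. Over the 7 measured enzymes of the arm, the median log2 fold change was 0.79 with NWD2 against NWD1, 0.22 with NWD2 against AIN76A and -0.46 with NWD1 against AIN76A.

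The second arm joins farnesyl units into squalene and turns that into cholesterol. Fdft1, squalene synthase, had 90.09 and 91.70 CPM in NWD2 libraries, against 56.78, 59.23 and 40.90 CPM in NWD1 libraries and 93.82 and 71.41 CPM in AIN76A libraries. Sqle, the epoxidase that commits squalene to sterols and is a rate-limiting step, had 105.1 and 85.8 CPM in NWD2 libraries, against 48.53, 64.75 and 50.73 CPM in NWD1 libraries and 78.98 and 82.17 CPM in AIN76A libraries. For both genes every NWD1 library was below every library of the other diets. Their log2 fold changes with NWD2 against NWD1 were 0.80 ± 0.26 for Fdft1 and 0.80 ± 0.25 for Sqle (SE). With NWD1 against AIN76A they were -0.66 ± 0.26 for Fdft1 and -0.56 ± 0.25 for Sqle (SE).

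Lss, which closes the sterol rings to form lanosterol, had 38.58 and 62.20 CPM in NWD2 libraries, against 19.18, 31.21 and 26.89 CPM in NWD1 libraries and 31.63 and 34.87 CPM in AIN76A libraries. Cyp51, the lanosterol demethylase, had 121.5 and 189.7 CPM in NWD2 libraries, against 53.68, 84.81 and 57.63 CPM in NWD1 libraries and 119.8 and 105.2 CPM in AIN76A libraries. For Cyp51 and Lss too, all NWD1 libraries were the lowest, and NWD2 replicate 2 was the highest. For Lss the margin was narrow, with NWD1 replicate 2 at 31.21 CPM just below AIN76A replicate 1 at 31.63 CPM. Cyp51 was 2.38-fold higher with NWD2 than with NWD1 (log2 fold change 1.25 ± 0.30, SE, edgeR adjusted p = 0.477), the largest difference of any member in this comparison. Lss followed at 1.96-fold (0.97 ± 0.30, SE, edgeR adjusted p = 0.527). The log2 fold change of Cyp51 with NWD1 against AIN76A was -0.78 ± 0.30 (SE). For Cyp51 the DESeq2 adjusted p with NWD2 against NWD1 was 0.0347, and without the filter on low counts the edgeR adjusted p was 0.0144.

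Nsdhl, which removes methyl groups from the sterol nucleus together with Hsd17b7, had 42.44 and 46.96 CPM in NWD2 libraries, against 35.66, 30.23 and 22.31 CPM in NWD1 libraries and 45.41 and 41.16 CPM in AIN76A libraries. Its log2 fold change with NWD2 against NWD1 was 0.60 ± 0.27 (SE), and NWD1 libraries again lay below all others. The remaining 4 sterol enzymes, Tm7sf2, Hsd17b7, Ebp and Dhcr7, had log2 fold changes of 0.37 to 0.59 in that comparison, with unadjusted p above 0.05. Tm7sf2, a sterol reductase, spanned 10.03 to 24.97 CPM, Hsd17b7 21.96 to 50.92 CPM, Ebp 110.2 to 189.9 CPM and Dhcr7 70.58 to 124.2 CPM over all libraries. Ebp, the sterol isomerase, was the smallest at 0.37 ± 0.26 (SE), and Dhcr7, the last reductase on one route to cholesterol, had 0.54 ± 0.24 (SE). Over the 9 enzymes of this arm the median was 0.60 with NWD2 against NWD1, 0.24 with NWD2 against AIN76A and -0.55 with NWD1 against AIN76A.

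**Figure D2:**
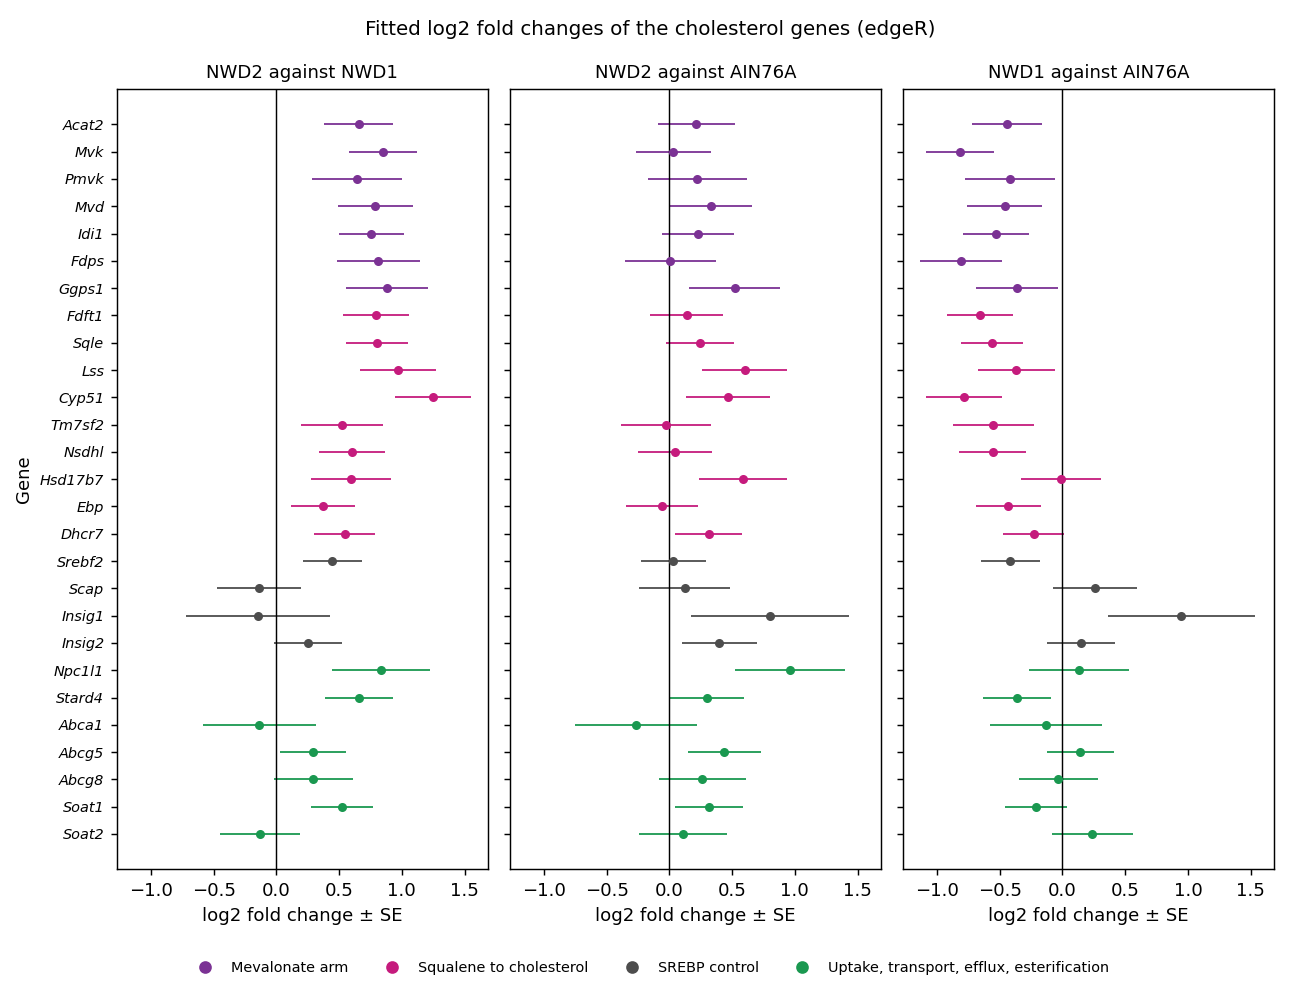
Fitted log2 fold changes (points) with their standard errors (bars) for the 27 cholesterol genes in each comparison, coloured by role. With NWD2 against NWD1 all 16 synthesis enzymes lie right of 0, with NWD1 against AIN76A all 16 lie left of it (Hsd17b7 at -0.01), and with NWD2 against AIN76A most lie near it.

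With NWD1 against AIN76A, all 16 synthesis enzymes had lower fitted levels, with a median log2 fold change of -0.49 and a range of -0.82 to -0.01. The median over all genes was 0.01, and 49.4% of all genes had a log2 fold change below 0. The count was 15 of 16 with scaling to library size and 14 of 16 on the TPM values, which lack NWD1 replicate 3. Leaving out that library alone gave 15 of 16. Hsd17b7, at -0.01, had a positive value with library size scaling and on TPM. All 3 NWD1 libraries lay below both AIN76A libraries for 10 of the 16, against 8.61% of all genes. An unadjusted p under 0.05 with a lower level was reached by 5 of the 16, namely Mvk, Fdps, Fdft1, Sqle and Cyp51, against 0.896% of all genes. Each of the 5 had an edgeR adjusted p of 0.878, and of all genes 500 had an unadjusted p under 0.05 while 0 were called by edgeR or voom and 1 by DESeq2. Without AIN76A replicate 1, which leaves 1 library of that diet, the median was -0.39. Without NWD1 replicate 3 the median was also -0.39. In that fit 1 of the 16 was lower at an unadjusted p under 0.05, against 0.729% of all genes. Without NWD1 replicate 1 it was 3 of the 16, against 3.92% of all genes.

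With NWD2 against AIN76A the values of the synthesis enzymes were smaller and varied with the fit. Of the 16, 14 had higher fitted levels, against 47.4% of all genes, and the median log2 fold change was 0.23 with a range of -0.06 to 0.60. No member had an unadjusted p under 0.05, against 1.18% of all genes with a higher and 2.65% with a lower level. Of all genes 560 had such a p, 0 were called by edgeR or voom and 52 by DESeq2. Both NWD2 libraries lay above both AIN76A libraries for 6 of the 16, against 13.2% of all genes. Lss had the largest value among the enzymes, 0.60 ± 0.34 (SE), Cyp51 had 0.47 ± 0.34 (SE) and Sqle had 0.24 ± 0.27 (SE). The values depended on single libraries, among them AIN76A replicate 1, in which 6 enzymes had their highest level of all libraries. The median was 0.36 without that library and 0.07 without AIN76A replicate 2, with 16 and 9 of the 16 enzymes higher. It was 0.095 without NWD2 replicate 2, with 12 of 16 higher, 0.085 with scaling to library size, with 11 of 16 higher, and 0.62 with a term for the i5 index, with 16 of 16 higher. The comparisons share libraries, since NWD1 enters both comparisons in which the enzymes differed most, so the opposite signs there are not separate observations.

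Across single libraries, all 3 NWD1 libraries lay below all 4 libraries of the other diets for 10 of the 16 enzymes, against 3.43% of all genes. Some of these margins were narrow. Dhcr7 had 87.56 CPM in NWD1 replicate 2 and 87.93 CPM in AIN76A replicate 2. Acat2 had 32.71 and 33.93 CPM in the same libraries. NWD1 replicate 3, the shallowest library, had the lowest level for 10 enzymes, and NWD1 replicate 1 for 4. Among libraries with the i5 index of NWD2, NWD1 replicate 3 lay below both NWD2 libraries for 16 of 16 enzymes, against 35.3% of all genes. Among libraries with the other index, NWD1 replicates 1 and 2 lay below both AIN76A libraries for 10 of 16, against 14.1% of all genes. No NWD2 library shares an index with an AIN76A library, so that comparison has no value within an index. A fit with an index term rests there on NWD1, the diet with both indices, and on its replicate 3 alone for the index of NWD2. It gave a median of 0.62 with NWD2 against AIN76A. Without NWD1 replicate 3, both NWD2 libraries still lay above the other NWD1 libraries for 15 of the 16, against 18.1% of all genes. The median log2 fold change was then 0.63. A higher level at an unadjusted p under 0.05 was reached by 4 of the 16, against 1.71% of all genes. Without NWD2 replicate 2 the median was 0.60, and without NWD2 replicate 1 it was 0.77, each fit leaving 1 NWD2 library. All 16 had a higher fitted level with NWD2 than with NWD1 in every alternative tried.

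**Figure D3:**
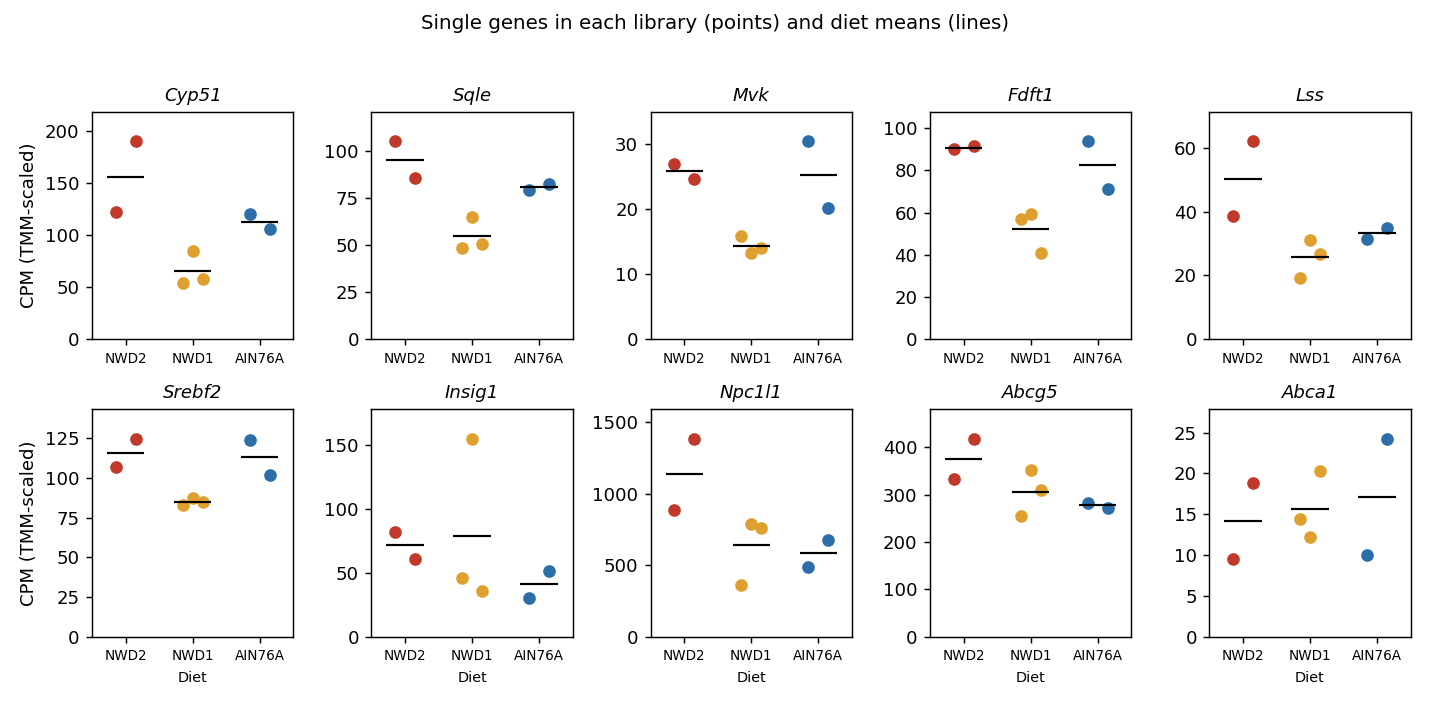
CPM of 10 cholesterol genes in each library (points) with the diet mean (lines), with axes starting at 0. Cyp51, Sqle, Mvk, Fdft1 and, by a narrow margin, Lss have all 3 NWD1 libraries below the others. Insig1 is set apart by NWD1 replicate 2 at 154.4 CPM, and Abca1 overlaps between diets.

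Of the 4 control genes, Srebf2 encodes SREBP-2 itself. It had 107.0 and 124.7 CPM in NWD2 libraries, against 82.88, 87.30 and 84.85 CPM in NWD1 libraries and 124.3 and 102.2 CPM in AIN76A libraries. The NWD1 libraries lay close together and below all 4 others, an order shared with 10 of the 16 enzymes. Its log2 fold change was 0.45 ± 0.23 (SE, edgeR adjusted p = 0.692) with NWD2 against NWD1 and -0.41 ± 0.23 (SE, edgeR adjusted p = 0.878) with NWD1 against AIN76A. Transcript levels do not measure the cleavage of SREBP-2, by which it is mainly governed.

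Insig1, itself a target of SREBP-2 and a brake on it, did not follow the enzymes. It had 81.87 and 60.57 CPM in NWD2 libraries, against 45.53, 154.4 and 35.92 CPM in NWD1 libraries and 30.55 and 51.10 CPM in AIN76A libraries. NWD1 replicate 2, the female library, was far above the other NWD1 libraries. With NWD2 against NWD1 the log2 fold change was -0.14 ± 0.57 (SE) with that library and 0.80 without it, and the reason for its level was not tested. With NWD1 against AIN76A it was 0.95 ± 0.59 (SE) with that library and -0.00029 without it.

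Insig2, the second INSIG gene, had 63.79 and 87.92 CPM in NWD2 libraries, against 50.49, 70.64 and 70.05 CPM in NWD1 libraries and 53.65 and 61.52 CPM in AIN76A libraries, with overlap between NWD2 and NWD1. Scap lay between 14.08 and 26.43 CPM over all libraries, with a log2 fold change of -0.14 ± 0.34 (SE) with NWD2 against NWD1. None of the 4 control genes had an unadjusted p under 0.05 in any comparison. Of all genes, 1.14% were higher and 6.75% lower at that p with NWD2 against NWD1. The shares were 1.18% and 2.65% with NWD2 against AIN76A, and 2.52% and 0.896% with NWD1 against AIN76A. The median log2 fold change of the 4 control genes with NWD2 against NWD1 was 0.06, with 2 higher and 2 lower.

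With NWD2 against NWD1, the 7 genes of sterol uptake, transport, efflux and esterification had a smaller median difference than the enzymes. It was 0.30 (range -0.13 to 0.83), with 5 higher and 2 lower, against 0.77 for the 16 enzymes. With NWD2 against AIN76A it was not smaller, at 0.30 beside 0.23 for the enzymes. With NWD1 against AIN76A it was -0.03, beside -0.49 for the enzymes. Stard4, higher with NWD2 against NWD1, was the only one of the 7 with an unadjusted p under 0.05 in any comparison. Of all genes, 1.14% were higher and 6.75% lower at that p with NWD2 against NWD1. With scaling to library size the median of the 7 with NWD2 against NWD1 was 0.037, beside 0.53 for the enzymes. The difference between the lists was not tested, as the members were chosen with results of these libraries known.

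Npc1l1, the sterol importer of the brush border and target of ezetimibe, had 888.1 and 1383 CPM in NWD2 libraries, against 360.9, 790.3 and 762.6 CPM in NWD1 libraries and 488.0 and 675.8 CPM in AIN76A libraries. Both NWD2 libraries were above all 5 others, while the NWD1 and AIN76A libraries overlapped. This order differed from that of the enzymes, since NWD1 was not the lowest diet. The log2 fold change was 0.83 ± 0.39 (SE, edgeR adjusted p = 0.655) with NWD2 against NWD1 and 0.96 ± 0.44 (SE, edgeR adjusted p = 0.996) with NWD2 against AIN76A.

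Stard4 encodes a soluble protein that moves sterol between membranes and is a known SREBP-2 target. It had 124.7 and 154.6 CPM in NWD2 libraries, against 105.2, 91.46 and 68.59 CPM in NWD1 libraries and 124.2 and 102.9 CPM in AIN76A libraries. NWD2 lay above NWD1 in all libraries, while AIN76A replicate 2 lay within the NWD1 range. The log2 fold change was 0.66 ± 0.27 (SE, edgeR adjusted p = 0.599) with NWD2 against NWD1, and -0.36 ± 0.27 (SE) with NWD1 against AIN76A.

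The efflux genes are targets of the sterol-sensing LXR receptors. Abcg5 had 332.9 and 417.7 CPM in NWD2 libraries, against 255.5, 351.6 and 310.3 CPM in NWD1 libraries and 282.9 and 271.8 CPM in AIN76A libraries. Its partner Abcg8 had 225.3 and 395.9 CPM in NWD2 libraries, against 211.1, 274.0 and 274.5 CPM in NWD1 libraries and 223.3 and 294.4 CPM in AIN76A libraries. NWD2 replicate 2 was the highest library for both genes, and NWD2 and NWD1 overlapped for both. With NWD2 against NWD1 Abcg5 had a log2 fold change of 0.30 ± 0.26 and Abcg8 of 0.29 ± 0.31 (SE), and without NWD2 replicate 2 that of Abcg8 was -0.16. Abca1 had 9.54 and 18.87 CPM in NWD2 libraries, against 14.42, 12.25 and 20.25 CPM in NWD1 libraries and 9.97 and 24.23 CPM in AIN76A libraries. Its replicates differed more within diets than the diets did, and the log2 fold change was -0.13 ± 0.45 (SE) with NWD2 against NWD1.

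Sterol is esterified by the acyltransferases Soat1, found in most tissues, and Soat2, found in enterocytes and liver. Soat2 had 240.7 and 225.0 CPM in NWD2 libraries, against 222.9, 234.2 and 307.9 CPM in NWD1 libraries and 151.2 and 281.0 CPM in AIN76A libraries, with overlap between all diets. Its log2 fold change was -0.13 ± 0.32 (SE) with NWD2 against NWD1. Soat1 lay between 18.92 and 32.87 CPM over all libraries, with both NWD2 libraries above all 5 others and a log2 fold change of 0.53 ± 0.25 (SE) with NWD2 against NWD1.

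**Figure D4:**
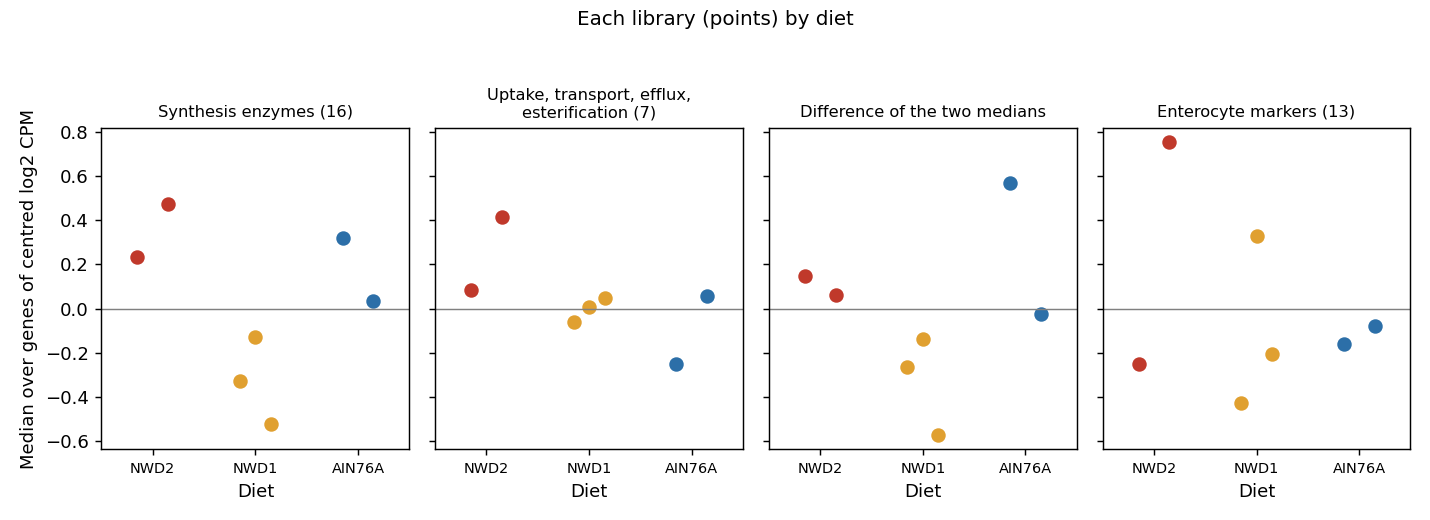
Median over genes of log2 CPM centred on each gene's mean, in each library (points) by diet, for the 16 synthesis enzymes, the 7 handling genes, the difference of these medians and 13 enterocyte markers. The enzymes lie below 0 in all 3 NWD1 libraries and above 0 in the 4 others, the handling genes lie higher in both NWD2 libraries than in the 5 others, and the enterocyte markers overlap between diets.

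To set both arms side by side in each library, log2 CPM was centred on each gene's mean and the median was taken over genes. For the enzymes the medians were 0.23 and 0.47 in NWD2 libraries, against -0.33, -0.13 and -0.52 in NWD1 libraries and 0.32 and 0.04 in AIN76A libraries. For the handling genes they were 0.09 and 0.41 in NWD2 libraries, against -0.06, 0.01 and 0.05 in NWD1 libraries and -0.25 and 0.06 in AIN76A libraries. Both NWD2 libraries thus lay above the 5 others on the handling genes, by a narrow margin for NWD2 replicate 1, while NWD1 and AIN76A overlapped. The enzymes minus the handling genes gave 0.15 and 0.06 in NWD2 libraries, against -0.26, -0.14 and -0.57 in NWD1 libraries and 0.57 and -0.02 in AIN76A libraries. The NWD1 libraries were the lowest 3 of the 7 on this difference.

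Markers of other cell types also differed between the libraries. The summed level of 13 enterocyte markers was 64078 and 123640 CPM in NWD2 libraries, against 58828, 88308 and 48003 CPM in NWD1 libraries and 67857 and 60634 CPM in AIN76A libraries. Of the 13, 10 had higher fitted levels with NWD2 than with NWD1, and their median log2 fold change was 0.66. The summed level of 8 enteroendocrine markers was 446 and 620 CPM in NWD2 libraries, against 1785, 1911 and 1628 CPM in NWD1 libraries and 1765 and 2174 CPM in AIN76A libraries. The 8 were all lower with NWD2 than with NWD1, with a median log2 fold change of -1.72. The 7 tuft cell markers summed to 55.1 and 66.6 CPM in NWD2 libraries, against 281, 98.01 and 175 CPM in NWD1 libraries and 232 and 136 CPM in AIN76A libraries, and all 7 were lower with NWD2 than with NWD1 (median -1.70). The 6 Paneth cell markers summed to 10957 and 21569 CPM in NWD2 libraries, against 19952, 14608 and 19822 CPM in NWD1 libraries and 40080 and 27266 CPM in AIN76A libraries. The 7 goblet cell markers summed to 8681 and 11003 CPM in NWD2 libraries, against 5738, 8671 and 10479 CPM in NWD1 libraries and 20547 and 10008 CPM in AIN76A libraries. Lower levels with NWD1 than with AIN76A, as for the enzymes, were found for 6 of 6 Paneth markers (median -0.87) and 7 of 7 goblet markers (median -1.08), and AIN76A replicate 1 had the highest sum of both. Epcam itself was 838 and 225 CPM in NWD2 libraries, against 1338, 1182 and 1103 CPM in NWD1 libraries and 510 and 986 CPM in AIN76A libraries. The part of these cell type differences in the values of the cholesterol genes was not tested.

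Other genes of the pathway were read from lists. Of 3 further sterol steps, 2 were higher and 1 lower with NWD2 against NWD1. Sc4mol (also called Msmo1), the sterol methyl oxidase, had 204.0 and 216.2 CPM in NWD2 libraries, against 126.3, 139.6 and 93.29 CPM in NWD1 libraries and 177.8 and 144.1 CPM in AIN76A libraries. All NWD1 libraries were again the lowest, with a log2 fold change of 0.81 ± 0.26 (SE) with NWD2 against NWD1. Sc5d had 0.74 ± 0.27 (SE). Both had an unadjusted p under 0.05, a higher level at that p being found for 1.14% of all genes. Of 7 genes of SREBP processing, 6 were higher and 1 lower with NWD2 against NWD1.

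Of 5 genes of the LXR receptors and their targets, 3 were higher and 2 lower with NWD2 against NWD1. Abcg1, a sterol exporter, was the only one of the 5 with an unadjusted p under 0.05, at levels of at most 0.86 CPM and lower with NWD2, as 6.75% of all genes were at that p. Of 8 genes of sterol trafficking, 5 were higher and 3 lower, and none had an unadjusted p under 0.05. Of 4 genes that supply acetyl units, 2 were higher and 2 lower, and of 6 genes that use isoprenoids, 5 were higher and 1 lower, with none at an unadjusted p under 0.05. With NWD1 against AIN76A only Scarb1, a lipoprotein receptor, had an unadjusted p under 0.05 among these 6 lists, at 1.26 ± 0.55 (SE), a higher level at that p being found for 2.52% of all genes. With NWD2 against AIN76A none had.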

How the data were processed

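The deposited counts, whole reads per Ensembl gene, and the deposited TPM values come, per the submitters' processing notes, with STAR 2.4.2a, HTSeq 0.6.1, edgeR without a version and build mm9; their roles, the annotation, the strand setting and filters are not given in the sources used here. The SMART-Seq v4 and Nextera XT kits used for these paired-end libraries, per the labels' protocols, do not mark strand, so that overlapping genes share reads.

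Symbols were matched in the TPM table and counts taken by Ensembl ID. Of the TPM columns, 1 matched no sample title and was not used. The edgeR 4.0.16 quasi-likelihood F test (R 4.3.3, TMM scaling, filterByExpr, robust) was fitted to all 7 libraries with diet alone, leaving 4 residual degrees of freedom; 14626 of 37310 genes were tested, with a biological coefficient of variation of 0.363, and p-values were Benjamini-Hochberg adjusted over these genes and called under 0.05. CPM are TMM-scaled. SEs are of fitted log2 fold changes, each taken as the absolute log2 fold change divided by the square root of the F statistic. An exact permutation test cannot go below p = 0.333 with 2 against 2 libraries or 0.1 with 3 against 2, and none was run. Total counts range from 14034315 to 77959407, which sets the counting precision.

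All members are named; values in every library are given for those with an unadjusted p under 0.05 in any comparison and for a list of main genes (Sqle, Idi1, Cyp51, Insig1, Insig2, Srebf2, Abca1, Npc1l1, Abcg5, Abcg8 and Soat2). The members and lists were chosen with earlier results of these data known. The fit was tested on simulated data with changes larger than those of any member, which does not show whether changes of the members' size would be called. Alternatives were other scaling (library size, DESeq2 size factors), other filters (none, or 1 CPM in 2 libraries), DESeq2 1.42.0, limma 3.58.1 voom, limma on log2(TPM + 1) and log2(TPM + 0.1) of the 6 libraries with TPM values (without NWD1 replicate 3), terms for replicate number, sex or i5 index, fits to 2 diets alone, calls at an adjusted p under 0.1 and each library left out. Promoter windows are from RefSeq, GRCm38.p6. Some single genes of the other pathway lists are not reported here.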

Additional observations from a re-analysis of the deposited data

How the results depend on the processing

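The lowest count of any member was 139 reads, in NWD1 replicate 3, the shallowest library. The part of depth in the values of the members was not tested. The standard errors of the members rest on a spread estimated in a single fit to all 7 libraries, not on the spread within single diets. Genes called numbered 85, 190 and 384 without the filter on low counts and 1, 52 and 180 with DESeq2 (NWD1 against AIN76A, NWD2 against AIN76A, NWD2 against NWD1). The TPM values cover 6 libraries, without NWD1 replicate 3, so that 2 choices change at once in fits on them. Genes called for NWD1 against AIN76A were 1 and 2 with limma on log2(TPM + 1) and log2(TPM + 0.1). For NWD2 against AIN76A they were 1 with the replicate block, 1 with an i5 term and 6 with only these 2 diets fitted. For NWD2 against NWD1 they were 2 with an i5 term, 1 on log2(TPM + 1) and 0 to 1 with 1 library left out. In that last comparison 1 member, Cyp51, was called without the filter (log2 fold change 1.27) and by DESeq2 (1.26). The cause of these differences was not tested.

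The median log2 fold change of the synthesis enzymes with NWD2 against NWD1 was 0.53 with library size scaling and 0.43 and 0.43 on log2(TPM + 1) and log2(TPM + 0.1), and 0.60 to 0.83 with 1 library left out. On TPM it was -0.19 and -0.19 with NWD1 against AIN76A, and with an i5 term it was 0.62 with NWD2 against AIN76A. Library size scaling moved the median of all genes to -0.19 with NWD2 against NWD1, relative to which the enzymes differed by 0.72, as with TMM. Enzymes higher at an unadjusted p under 0.05 in that comparison were also counted, with the share of all genes in brackets. The count was 2 with library size scaling (0.232%), 1 on TPM (0.5%) and 7 with an i5 term (0.985%). It was 9 with voom (1.37%) and 10 with DESeq2 (1.26%). For lower levels with NWD1 against AIN76A it was 2 with library size scaling (0.444%) and 2 with the replicate block (1.38%). There it was 1 with an i5 term (0.759%) and 0 on TPM (0.5%). These counts were added after seeing the data, as was the count of separated enzymes with libraries left out. For the handling genes the median with NWD2 against NWD1 was 0.037 with library size scaling, 0.11 and 0.11 on TPM and 0.13 to 0.41 with 1 library left out. Leaving out 1 library gave them -0.22 to 0.18 with NWD1 against AIN76A and 0.16 to 0.48 with NWD2 against AIN76A.

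Signs turned for Hsd17b7 with NWD1 against AIN76A, at 0.085 with library size scaling, 0.015 with voom, 0.023 with the replicate block, 0.016 with an i5 term, 0.18 and 0.20 on TPM and -0.24 to 0.25 with 1 library left out. Insig1 had -0.0023 with a sex term in that comparison, and 0.12 with voom, 0.81 with a sex term and 0.99 with an i5 term in NWD2 against NWD1. Insig2 had -0.015 with library size scaling and Soat2 0.035 with the replicate block in NWD2 against NWD1. Ebp had 0.096 with an i5 term in NWD2 against AIN76A. With 1 library left out, the ranges with NWD1 against AIN76A were -0.00029 to 1.36 for Insig1 and -0.15 to 0.75 for Soat2. With NWD2 against AIN76A they were -0.30 to 0.24 for Ebp and -0.84 to 0.52 for Abca1. With NWD2 against NWD1 they were -0.55 to 0.17 for Scap, -0.49 to 0.80 for Insig1, -0.70 to 0.24 for Abca1, -0.16 to 0.61 for Abcg8 and -0.22 to 0.027 for Soat2.

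Deviations from the diet means correlated at -0.00022 to 0.26 between libraries of the same replicate number and at -0.26 to 0.17 between different numbers. In a diet with 2 libraries the deviations mirror each other, so these values cannot decide whether the numbers pair the samples. The main fit took no pairing. With the replicate block, 6 of the 16 enzymes were higher at an unadjusted p under 0.05 with NWD2 against NWD1, against 3.35% of all genes. Their median log2 fold change over the 16 was 0.63.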
